A study of Mus musculus with 30 samples.

Results

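The translation initiation factors are the proteins that bring the ribosome, the initiator tRNA and an mRNA together at a start codon. Their transcripts were followed here in primary endothelial cells, the cells that line blood vessels, from the brains of untreated WT (wild-type) mice at 5 ages, the youngest 2 months old and the others 6, 12, 18 and 24. The 50 members were the genes whose symbol begins with Eif and a digit from 1 to 6, out of 48795 genes in the count tables. Of the 63 symbols of that form, 13 were left out. These were 7 processed pseudogenes, the 4 Eif2ak genes, which encode the kinases that phosphorylate eIF2, and the sex-linked eIF2 gamma genes Eif2s3x and Eif2s3y. By complex, 5 members belonged to eIF1 and eIF1A, 4 to eIF2, 5 to eIF2B, 14 to eIF3, 16 to eIF4, 4 to eIF5 and 1 to eIF6. The 1 other member, Eif2c5, is a long non-coding RNA whose symbol alone fits the pattern.

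The 6 libraries of an age, described by the study as biological replicates, came from 3 males and 3 females. All groups share the WT genotype and the absence of treatment. Its question was which transcripts change with age, asked by linear regression with sex taken into account. The labels do not say how the cells were isolated, or if 1 library stands for 1 mouse or for pooled mice. Full-length cDNA was amplified from little RNA and cut by tagmentation, with 24 libraries read from both ends and 6 from a single end on another instrument. The labels do not mark the 6, so any difference they make was not tested.

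As background, initiation runs in steps that the complexes divide between them. eIF2 with GTP carries the initiator tRNA to the small ribosomal subunit, where eIF1, eIF1A, eIF3 and eIF5 join, and eIF2B recharges eIF2 with GTP after each round. eIF4E binds the mRNA cap, eIF4G is the scaffold, and the helicase eIF4A, helped by eIF4B and eIF4H, unwinds the leader. The 4E-binding proteins hold eIF4E inactive until mTORC1 phosphorylates them. Phosphorylated eIF2 blocks eIF2B, which is the core of the integrated stress response, and eIF6 keeps the large subunit from joining too early.

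Counts in genes ranged from 24140980 to 50464366 per library. Levels are given as CPM, the usual depth-normalised read count, on library sizes scaled by TMM, and levels of different genes are compared only as CPM per kb of annotated exon. A count of 0 allowed up to 0.0594 to 0.124 CPM depending on the library (3 counts), a limit that covers counting error only. The 8 endothelial markers Cldn5, Pecam1, Cdh5, Tek, Slc2a1, Flt1, Kdr and Emcn summed to between 14421 and 19323 CPM in the 30 libraries. Markers of other cells were lower, with sums of 156 to 6941 CPM for choroid plexus and ependyma and 219 to 2731 CPM for erythroid cells. Sums were 132 to 1955 CPM for oligodendrocytes, 372 to 1188 CPM for pericytes and 191 to 1180 CPM for astrocytes. Microglia markers summed to 146 to 1095 CPM, those of fibroblasts to 154 to 655 CPM and those of smooth muscle to 36.8 to 390 CPM. Neuron markers had 1.74 to 8.56 CPM. None of the markers listed was at 0 in all libraries. Fewer cells of a type and less RNA per cell cannot be told apart in such bulk samples.

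Among the members, 46 passed the filter on low counts and were tested. Eif4e1b, an oocyte form of eIF4E, and Eif2c5 had no count in any library. Eif4ebp3, the third 4E-binding protein gene, reached at most 0.157 CPM and was at 0 in 16 libraries. Of its exons 67.3% lie within another gene on the same strand, where reads are counted for neither, so this count does not measure its level. Eif3j2, a copy of the eIF3 j subunit gene, reached at most 0.344 CPM, and 91.8% of the 50-base windows of its transcript occur in other genes as well.

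Eif4a1, which encodes the helicase eIF4A, had the largest difference from 2 months of the 46, and its sequence bears on how it can be counted. The gene lies on chromosome 11 (69666936 to 69672423, minus strand, GRCm38). A processed pseudogene, Eif4a-ps4, lies on chromosome 1 (60703932 to 60705149) and carries a copy of its coding sequence that differs at 1 base, G534A, where positions count from 1 at the A of the Eif4a1 start codon and Eif4a1 has the first letter. In capitals is the base that differs, within coding bases 504 to 563, to show how little separates a read of the gene from one of the copy.
Eif4a1: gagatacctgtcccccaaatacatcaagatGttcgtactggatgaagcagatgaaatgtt
Eif4a-ps4: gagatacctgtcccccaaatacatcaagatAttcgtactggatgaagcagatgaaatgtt
Of the 1172 coding windows of 50 bases in Eif4a1, 1119 (95.5%) are identical in the copy. Over the whole transcript 1126 of 1725 windows (65.3%) occur in another gene. Reads that map to several places are counted for no gene, and the windows of Eif4a1 found nowhere else lie mostly outside its coding sequence.

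Per kb of exon the tested members spanned from 170.2 CPM for Eif5a to 0.950 CPM for Eif3j1. The length used is the union of all annotated exons of a gene, which can far exceed 1 transcript. In Eif3e it is 6719 bases against 1506 for the longest coding transcript, and in Eif4a1 4334 against 1774. Orders per kb, here and below, therefore depend in part on the annotation. Eif5a, whose hypusine-bearing product helps the ribosome through difficult peptide bonds, stood above Eif4h, the helper of eIF4A, at 101 CPM per kb, Eif1 at 99.0 and Eif3g at 98.7. Those 3 neighbours had overlapping ranges over the 30 libraries, and the range of Eif5a (117.7 to 214.9 CPM per kb) overlapped each of them. Eif4a1 was 43rd in this order, at 4.42 CPM per kb (2.05 to 8.45 across libraries), against 21.3 for its paralog Eif4a2 and 61.4 for Eif4a3, the helicase of the exon junction complex. Reads lost to other genes lower the level of Eif4a1 and of Eif3j1, with 54.8% of its windows shared. The same holds for other ranked members, among them Eif3m (39.95% shared), Eif1 (31.6%), Eif2s2 (27.8%), Eif3h (26.2%) and Eif4a3 (24.4%). The amounts lost were not tested, so orders per kb, here and below, depend on these losses as well.

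**Figure D1:**
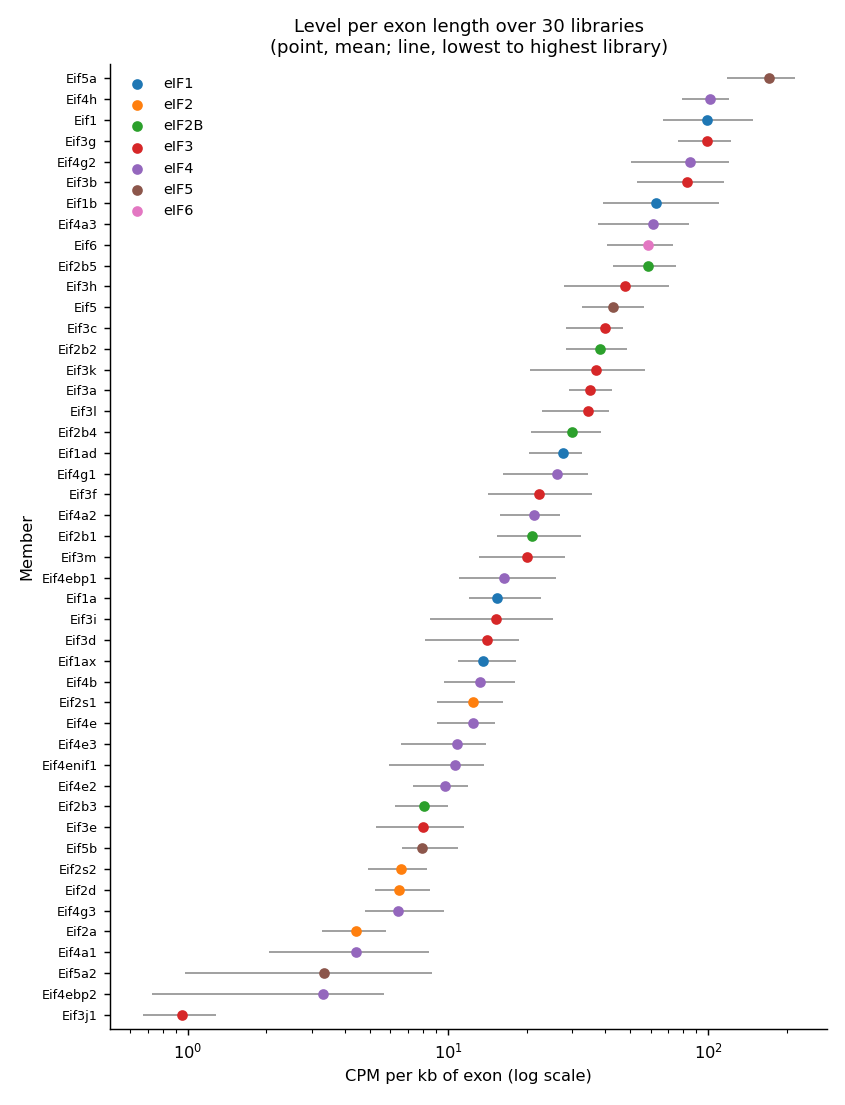
Level of the 46 tested members as CPM per kb of exon (log scale), with the mean of 30 libraries as a point and the lowest and highest library as a line, coloured by complex. Eif5a stands at the top, and Eif4a1 and Eif3j1 lie near the bottom.

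The slope of log2 expression on age, with sex as a covariate and given over the 22 months from 2 to 24, passed for 4 of the 46 members, all falling and none rising (edgeR quasi-likelihood test, Benjamini-Hochberg adjusted p under 0.05 over 16844 genes, n = 30). Across all genes tested 5.22% fell and 5.72% rose. Eif2b4 and Eif2b2 encode the delta and beta subunits of eIF2B, Eif3g an RNA-binding subunit of eIF3, and Eif6 the large-subunit factor. The changes were small, between 0.28 and 0.38 log2. The median slope of the 46 was -0.18 log2 (35 below 0 and 11 above), against 0.03 over all genes tested, and 20 of the 46 had an unadjusted p under 0.05, as had 4348 of all 16844 genes. That median moved to -0.02 with the share of reads outside genes as a covariate and to -0.09 with the share of counts in longer genes. Marker genes of other cells moved with age as well, and their part in these falls was not tested. On the slope 3 of 5 choroid plexus and ependyma markers and 2 of 7 astrocyte markers fell, 3 of 7 pericyte markers and 1 of 5 smooth muscle markers rose, and 1 of 8 endothelial markers fell. The choroid plexus and ependyma sum was 899 to 4249 CPM at 2 months (median 2947), 385 to 5343 at 6 (997), 765 to 6941 at 12 (1331), 156 to 1434 at 18 (954) and 618 to 2261 at 24 (1217).

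Eif2b4 (chromosome 5, 31187558 to 31193430) lay between 76.0 and 100.2 CPM at 2 months (median 95.1), 71.5 and 86.5 at 6 (83.4), 65.1 and 92.2 at 12 (74.2), 54.1 and 74.8 at 18 (65.2), and 63.4 and 83.5 at 24 (70.9). All 6 libraries of 18 months were below all of 2 months, and the 6 of 24 months were below the 2-month mean. Its fall over 22 months was 0.38 ± 0.09 log2 (SE, edgeR adjusted p = 0.00604). The call held when any 1 of the 30 libraries was left out (adjusted p from 0.00171 to 0.0174). It ended with the share of reads outside genes as a covariate, in the male libraries alone and without the 2-month libraries, with values between -0.63 and -0.20 over the 14 alternatives. A 7.85% part of its exons overlaps Snx17 on the other strand, where reads are counted for neither gene.

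Eif2b2 (chromosome 12, 85219481 to 85226628) ranged from 60.6 to 87.3 CPM at 2 months (median 77.6), 67.6 to 91.5 at 6 (80.0), 71.3 to 85.2 at 12 (75.4), 53.5 to 66.8 at 18 (59.6) and 63.5 to 76.2 at 24 (67.8). Every library of 18 and 24 months lay below the 2-month mean, though the ranges overlapped. The slope was -0.28 ± 0.09 log2 (edgeR adjusted p = 0.0482), and leaving out 1 library ended the call in 23 of 30 cases (adjusted p up to 0.107). It also ended under 10 of 14 alternatives, with a slope of -0.05 log2 under the covariate of reads outside genes, -0.16 with the share of counts in longer genes and -0.18 in males alone.

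Eif3g (chromosome 9, 20894349 to 20898623) had 194 to 229 CPM at 2 months (median 200.4), 175 to 242 at 6 (225), 182 to 237 at 12 (209.8), 152 to 186 at 18 (164) and 166 to 211 at 24 (186). Its 18-month libraries did not overlap those of 2 months. The slope was -0.28 ± 0.09 log2 (edgeR adjusted p = 0.0377), and 14 of the 30 single-library omissions ended the call. So did 9 of 14 alternatives, with -0.05 log2 under reads outside genes, -0.15 under the share in longer genes and -0.14 in males alone.

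Eif6 (chromosome 2, 155819832 to 155826925) went from 146 to 197 CPM at 2 months (median 174), through 147 to 190.0 at 6 (175) and 145 to 198 at 12 (166), to 111 to 141 at 18 (127) and 123 to 179.9 at 24 (149). The drop was at 18 months, where no library reached the lowest of 2 months. The slope was -0.31 ± 0.10 log2 (edgeR adjusted p = 0.0426), with 17 of 30 omissions ending it. Another 9 of 14 alternatives ended it, with -0.02 log2 under reads outside genes, -0.19 under the share in longer genes and -0.12 in males alone, against -0.52 in females alone. The 4 falling members thus had their lowest medians at 18 months and not at 24 months. A straight line did not describe the course of Eif2b2 and Eif6 (departure, edgeR adjusted p = 0.0405 and 0.0454). For Eif2b4 and Eif3g the departure did not pass (adjusted p = 0.160 and 0.0568).

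**Figure D2:**
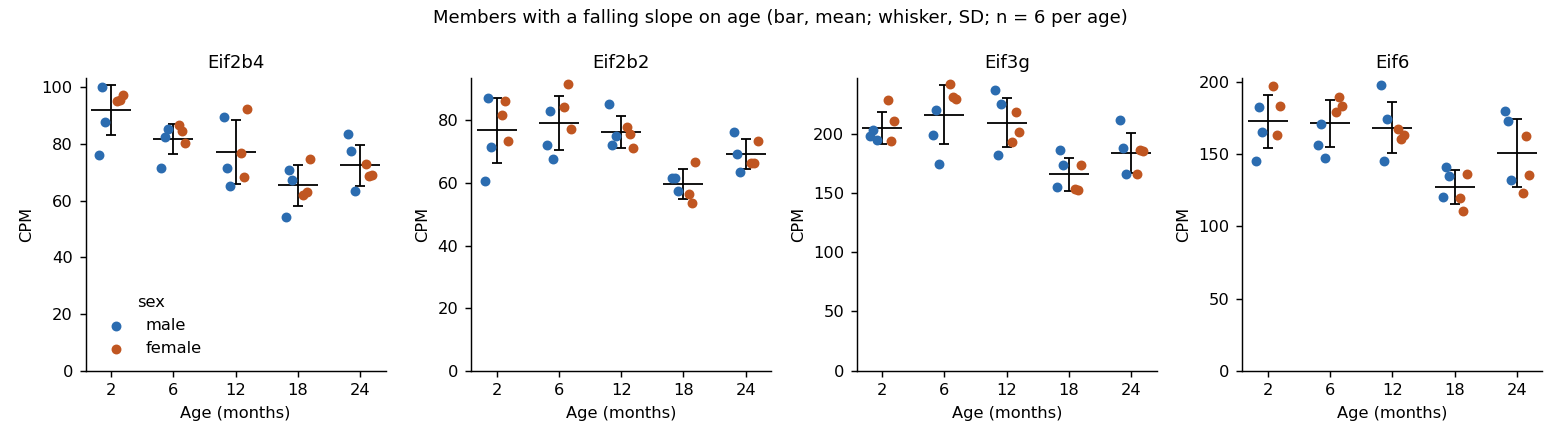
CPM of Eif2b4, Eif2b2, Eif3g and Eif6 in each library against age in months, males and females in separate colours, with the mean and SD of 6 libraries per age. In each panel the 18-month mean is the lowest, at 65.4, 59.6, 166 and 127 CPM.

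The promoters of the falling members were read from RefSeq because these genes all fell on the slope. RefSeq's promoter windows on GRCm38.p6 held 38 of the 50 members. Eif1a, Eif2b3, Eif3e, Eif3h, Eif3i, Eif3j2, Eif4e1b, Eif4e3, Eif4ebp1, Eif4ebp3, Eif4g2 and Eif6 were not among them. The 250 bases before the start are printed for Eif2b4 (chr5:31193140-31193389, minus), Eif2b2 (chr12:85219231-85219480, plus), Eif3g (chr9:20898591-20898840, minus) and, for comparison, Eif4a1 (chr11:69672424-69672673, minus), whose E-box is in capitals.
Eif2b4: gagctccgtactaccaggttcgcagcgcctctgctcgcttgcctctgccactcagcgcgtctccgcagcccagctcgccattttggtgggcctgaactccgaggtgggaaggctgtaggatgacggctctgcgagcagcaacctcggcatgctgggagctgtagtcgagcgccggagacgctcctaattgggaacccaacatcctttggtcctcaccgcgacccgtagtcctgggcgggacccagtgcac
Eif2b2: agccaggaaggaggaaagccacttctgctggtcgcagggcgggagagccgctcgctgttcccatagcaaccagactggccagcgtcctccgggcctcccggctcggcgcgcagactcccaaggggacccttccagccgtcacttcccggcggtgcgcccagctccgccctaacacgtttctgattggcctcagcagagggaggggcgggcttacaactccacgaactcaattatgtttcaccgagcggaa
Eif3g: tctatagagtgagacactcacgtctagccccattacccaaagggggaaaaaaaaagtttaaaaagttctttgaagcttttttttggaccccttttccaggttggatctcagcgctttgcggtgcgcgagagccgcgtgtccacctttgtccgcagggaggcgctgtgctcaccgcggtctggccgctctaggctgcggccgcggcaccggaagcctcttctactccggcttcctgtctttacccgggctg
Eif4a1: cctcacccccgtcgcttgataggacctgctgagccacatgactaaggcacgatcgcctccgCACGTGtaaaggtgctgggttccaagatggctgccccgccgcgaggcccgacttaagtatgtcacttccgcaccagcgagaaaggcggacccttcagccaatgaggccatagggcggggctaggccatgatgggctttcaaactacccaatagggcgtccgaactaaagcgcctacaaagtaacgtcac
Windows of 300 bases, from 250 before to 50 after the start, were searched on both strands for the E-box CACGTG, the site bound by Myc and USF proteins among others, and for TGATGNAA, the core of the amino acid response element bound by ATF4. The E-box was in 12 of the 50 windows of members (24.0%), in 10 genes, and in 2349 of all 32851 windows (7.15%). Its genes were Eif1b, Eif3a, Eif3f, Eif3k, Eif4a1, Eif4e, Eif4g1, Eif4h, Eif5a and Eif5a2, and in Eif4a1 it begins 189 bases before the start. The ATF4 core was in none of the 50 windows and in 1304 of all windows (3.97%). Neither motif was in the windows of Eif2b4, Eif2b2 or Eif3g. The printed bases of Eif2b4 lie wholly within the gene as annotated (31187558 to 31193430), so they do not flank it. Those of Eif3g lie partly within its gene, which ends at 20898623. Windows of a gene can overlap, so a site can be counted more than once, as in Eif5a, and no share per gene was computed over all genes. A match is a description of letters and shows no binding.

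At 6 months, 5 of the 46 members differed from 2 months, 4 higher and 1 lower (edgeR, adjusted p under 0.05). Of all genes tested 4.07% were higher and 4.69% lower. At 12 months 1 member was higher and none was lower, against 1.38% and 1.56% of all genes. At 18 months 3 members were higher and 10 lower, against 10.1% and 8.70% of all genes. At 24 months 1 member was higher and 2 were lower, against 4.86% and 3.48%. The joint test of a departure from a straight line passed for 13 members (28.3%) and for 17.7% of all genes. The 13 were Eif1, Eif1ax, Eif1b, Eif2b1, Eif2b2, Eif3f, Eif3h, Eif3i, Eif3k, Eif4a1, Eif4a2, Eif4g3 and Eif6. The 4 contrasts share the 2-month libraries.

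**Figure D3:**
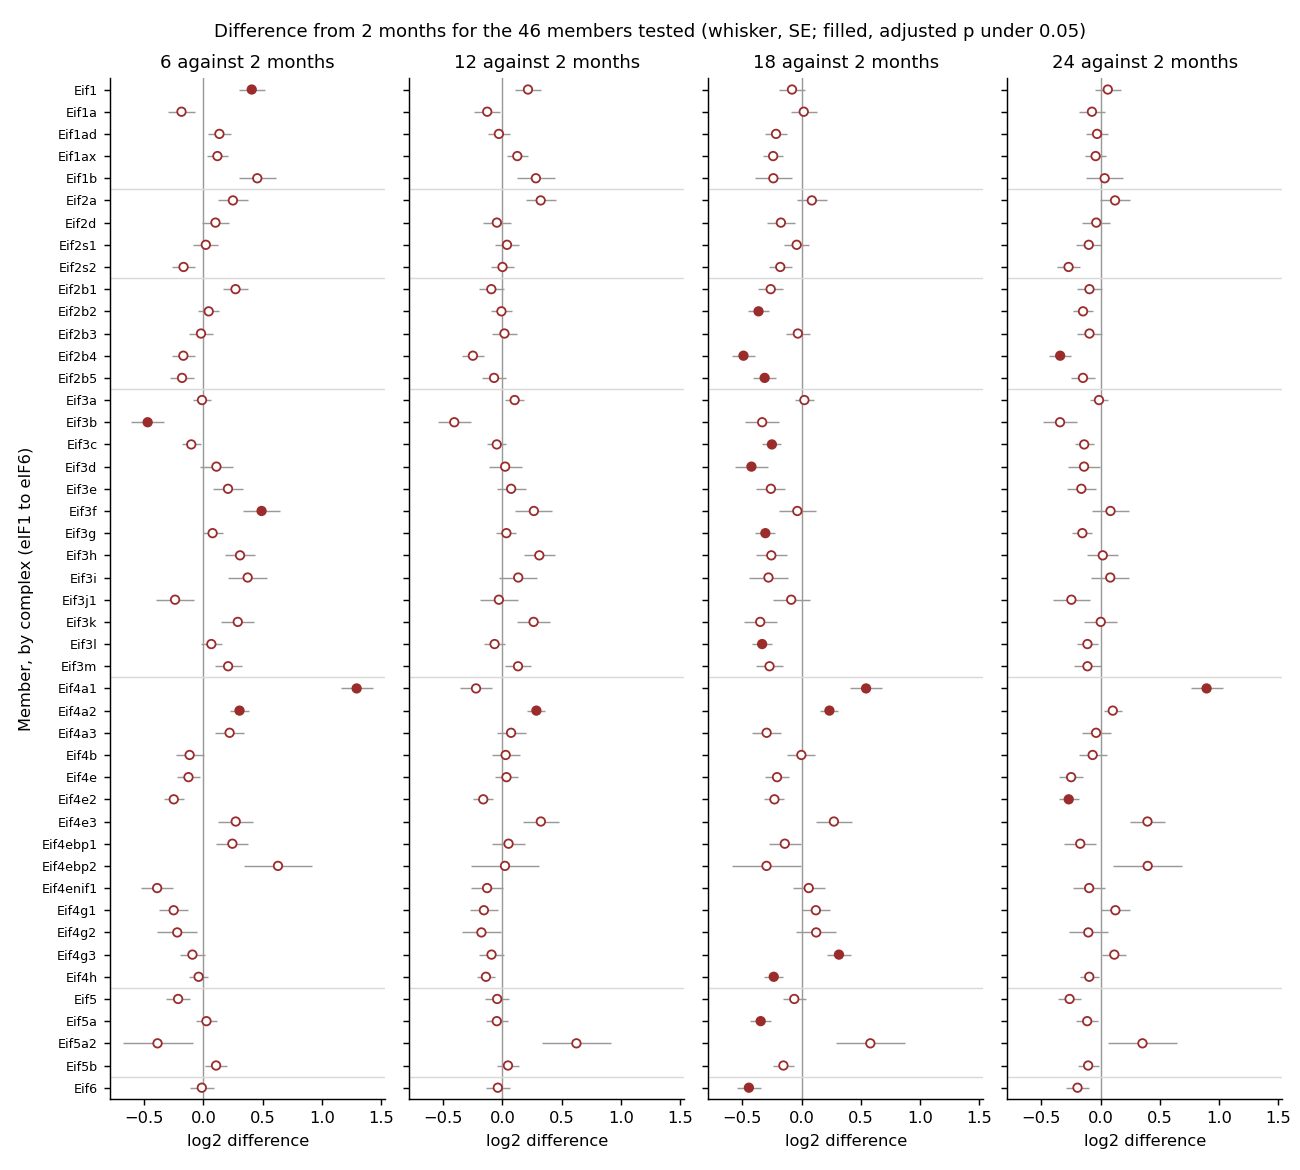
Log2 difference from 2 months of the 46 tested members at 6, 12, 18 and 24 months, in rows by complex, with SE as whiskers and filled points for adjusted p under 0.05. Eif4a1 stands far to the right at 6 and 24 months, and most of the filled points at 18 months lie to the left of 0.

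Eif4a1 was the member that moved most. It lay between 10.8 and 14.4 CPM at 2 months (median 12.3), 24.2 and 36.6 at 6 (30.8), 8.86 and 13.1 at 12 (10.5), 13.7 and 23.8 at 18 (17.0), and 19.5 and 25.8 at 24 (23.7). The 6- and 24-month libraries did not overlap those of 2 months, while those of 12 months did. Against 2 months it was higher by 1.29 ± 0.14 log2 at 6 months (edgeR adjusted p = 2.46e-07), by 0.54 ± 0.13 at 18 (adjusted p = 0.00509) and by 0.89 ± 0.13 at 24 (adjusted p = 3.66e-05). At 12 months the difference was -0.22 log2 (adjusted p = 0.421). A straight line did not describe this course (departure, adjusted p = 5.04e-09), and the slope was 0.21 ± 0.29 log2 (adjusted p = 0.688).

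The calls of Eif4a1 at 6 and 24 months held when any 1 of the 30 libraries was left out and under all 7 alternatives, where the differences ranged from 1.09 to 1.31 log2 at 6 months and from 0.85 to 0.89 at 24 months. At 6 months the 3 male libraries had 24.2, 28.7 and 27.0 CPM and the 3 female libraries 32.8, 36.6 and 36.2 CPM. The call at 18 months held in every omission of 1 library and ended with the share of reads outside genes as a covariate (0.43 log2, adjusted p = 0.494).

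The pseudogene Eif4a-ps4 was counted at a far lower level. It had 0.346 to 1.04 CPM at 2 months, 0.999 to 1.69 at 6, 0.323 to 0.504 at 12, 0.340 to 0.556 at 18 and 0.838 to 1.18 at 24. It was high in the libraries of 6 and 24 months, in which Eif4a1 was high, and not in those of 18 months. Its difference at 6 months was 1.17 ± 0.35 log2 (edgeR adjusted p = 0.0330) and at 24 months 0.74 ± 0.34 (adjusted p = 0.208). Reads at several places made up 9.45 to 10.6% of reads at 2 months, 9.57 to 13.3% at 6 and 9.35 to 11.0% at 24. Whether the split of reads between Eif4a1, its copy and no gene differs between libraries, such as those read from 1 end, was not tested.

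Eif4a2, the paralog that also serves as eIF4A, had 84.4 to 113 CPM at 2 months (median 99.3), 117 to 139.6 at 6 (119.9), 104 to 143 at 12 (122), 106 to 128 at 18 (115) and 92.7 to 129.6 at 24 (106). It was higher than at 2 months by 0.30 ± 0.08 log2 at 6 (edgeR adjusted p = 0.0137), 0.29 ± 0.08 at 12 (adjusted p = 0.0353) and 0.24 ± 0.08 at 18 (adjusted p = 0.0303). At 24 months the difference was 0.10 log2 (adjusted p = 0.483). The ratio of Eif4a1 to Eif4a2 was 0.129 ± 0.0269 (SD, n = 6) at 2 months, 0.252 ± 0.0419 at 6, 0.0891 ± 0.0134 at 12, 0.156 ± 0.0352 at 18 and 0.220 ± 0.0321 at 24. The 6-month call of Eif4a2 held in all 30 omissions of 1 library. Its 12-month call ended in 5 of 30 (adjusted p up to 0.107) and with no filter, and its 18-month call in 3 of 30, with no filter and with reads outside genes as a covariate (0.03 log2). Eif4a3 passed in no contrast, with differences from 2 months between -0.30 and 0.22 log2.

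**Figure D4:**
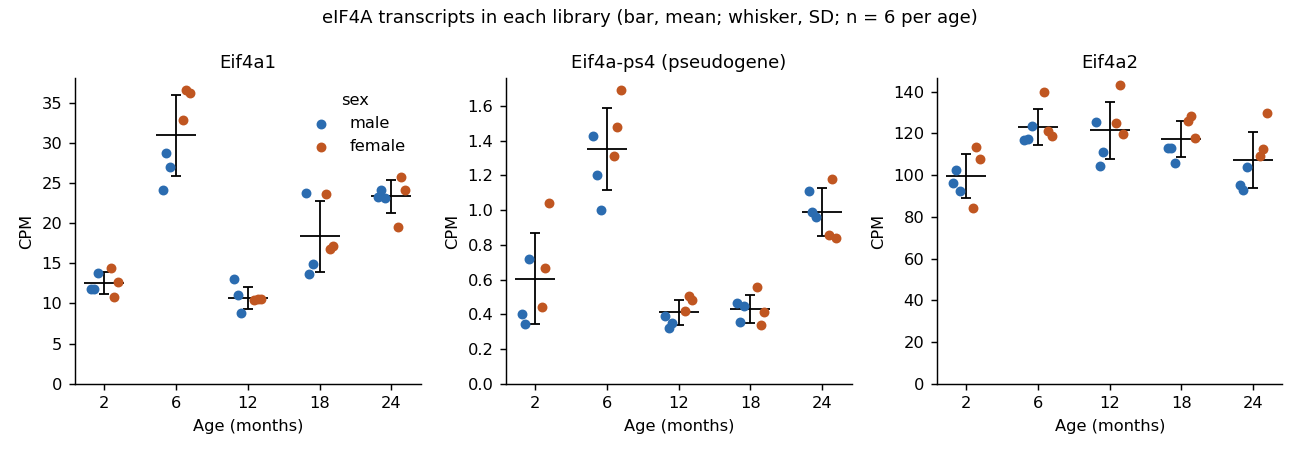
CPM of Eif4a1, of its processed pseudogene Eif4a-ps4 and of Eif4a2 in each library against age in months, with the mean and SD of 6 libraries per age and the sexes in separate colours. Eif4a1 and Eif4a-ps4 are both high at 6 and 24 months, with means of 30.9 and 23.3 CPM for Eif4a1, and Eif4a2 stays between 84.4 and 143 CPM.

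The 10 members that were lower at 18 months came from 5 of the complexes. In eIF2B these were Eif2b4 (-0.49 log2), Eif2b2 (-0.36) and Eif2b5 (-0.31), the last encoding the catalytic epsilon subunit. In eIF3 they were Eif3d (-0.42), Eif3l (-0.33), Eif3g (-0.31) and Eif3c (-0.25). Eif4h (-0.23), Eif5a (-0.35) and Eif6 (-0.44) completed them, and the SEs of the 10 ranged from 0.08 to 0.14. The median difference of the 46 was -0.21 log2 at 18 months, against -0.00 over all genes tested, with 35 members below 0 and 11 above.

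The 18-month libraries also had the largest share of reads outside annotated genes, 7.99 to 13.1%, which did not overlap the 3.82 to 6.61% of 2 months. With that share as a covariate none of the 13 members passed at 18 months, and 214 of all genes did, against 3163 without it. Under it the median of the 46 was 0.03 log2, and Eif3d, Eif3g, Eif5a and Eif6 changed sign. Age and this share cannot be told apart between these groups.

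eIF2B as a whole is the exchange factor of the stress response, and its 5 subunit transcripts summed to 371 to 482 CPM at 2 months (median 455), 405 to 445 at 6 (428), 384 to 441 at 12 (421), 327 to 394 at 18 (350.3) and 361 to 450.1 at 24 (389.5). All 5 slopes were below 0, from -0.38 to -0.08 log2, and 2 of the 5 passed. Eif2b5 had 142 to 180.3 CPM at 2 months, 119.8 to 167 at 6, 140.3 to 194 at 12, 111 to 161 at 18 and 132 to 175 at 24. Its call at 18 months (edgeR adjusted p = 0.0278) ended in 6 of 30 omissions of 1 library. Eif2b1 and Eif2b3, the alpha and gamma subunits, averaged 54.3 and 52.7 CPM over the 30 libraries and passed in no contrast. In CPM per kb of exon the order was Eif2b5 at 58.4 CPM, Eif2b2 at 38.3, Eif2b4 at 29.9, Eif2b1 at 21.0 and Eif2b3 at 8.08.

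None of the 4 eIF2 members passed on the slope or in any contrast. Eif2s1, the alpha subunit whose phosphorylation sets off the stress response, ranged from 56.6 to 70.2 CPM at 2 months, 53.9 to 80.4 at 6, 54.7 to 69.2 at 12, 52.2 to 72.8 at 18 and 45.0 to 68.4 at 24, and these ranges overlapped throughout. Eif2s2, the beta subunit, had 45.5 to 53.3 CPM at 2 months and 33.2 to 43.6 at 24 months without overlap, but the difference of -0.27 log2 missed the threshold (edgeR adjusted p = 0.0824). Eif2d and Eif2a, which deliver tRNA without the eIF2 trimer, averaged 47.7 and 27.2 CPM. Relative to exon length Eif2s1 stood at 12.5 CPM per kb, Eif2s2 at 6.58, Eif2d at 6.47 and Eif2a at 4.44. Of the gamma subunit genes left out by the rule, Eif2s3y had 27.0 to 65.7 CPM in the 15 male libraries and no count in the female ones, while Eif2s3x had 1.37 to 4.17 CPM over all 30. In the Eif2s3x transcript 36.2% of the 50-base windows occur in other genes, against 0% for Eif2s3y. Reads lost there lower the Eif2s3x count by an amount that was not tested, so these levels are not compared.

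eIF3 is the largest complex, and 13 of its 14 members were tested. Their sum was 1442 to 1708 CPM at 2 months (median 1621), 1452 to 1673 at 6 (1636), 1489 to 1700.4 at 12 (1606.5), 1232 to 1535 at 18 (1338) and 1379 to 1627 at 24 (1446). On the slope 12 of the 13 were below 0 and 1 passed, Eif3g. Eif3a, the core subunit, was the steadiest of the 46 (CV 8.45% over 30 libraries). It had 259.8 to 339 CPM at 2 months, 267 to 337 at 6, 297 to 372 at 12, 269 to 335 at 18 and 253 to 335 at 24.

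Within eIF3 1 subunit passed in each direction at 6 months. Eif3b, a core subunit, had 273 to 383 CPM at 2 months (median 348) and 184 to 314 at 6 months (242), ranges that overlapped (difference -0.47 ± 0.14 log2, edgeR adjusted p = 0.0352). It had 178 to 311 at 12 months, 183 to 362 at 18 and 232 to 310.3 at 24, and no other contrast of it passed. Eif3f had 53.4 to 66.8 CPM at 2 months and 59.0 to 103 at 6 months, also overlapping (difference 0.49 ± 0.16 log2, adjusted p = 0.0456). It had 56.9 to 95.6 at 12 months, 41.1 to 81.6 at 18 and 51.9 to 74.2 at 24. Omitting 1 library ended the call of Eif3b in 9 of 30 cases and that of Eif3f in 14. Without the female 6-month libraries the differences were -0.18 log2 for Eif3b and 0.06 for Eif3f, and with the share of counts in longer genes as a covariate -0.25 and 0.11, none passing.

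Eif3l had 121 to 143 CPM at 2 months, 118 to 151 at 6, 111 to 143 at 12, 83.7 to 123 at 18 and 111 to 137 at 24. Its 18-month call (edgeR adjusted p = 0.00750) held in all 30 omissions. Eif3c had 138 to 159.9 CPM at 2 months, 119.9 to 152 at 6, 125 to 164 at 12, 99.9 to 153 at 18 and 129 to 145 at 24. Eif3d, the cap-binding subunit, had 57.0 to 81.9, 64.7 to 92.5, 63.2 to 93.2, 40.5 to 79.8 and 58.3 to 76.2 CPM at the 5 ages in order. The 18-month libraries of Eif3c and Eif3d spanned the widest ranges, and their calls there ended in 7 and 8 of 30 omissions. Of the Eif3d exons 43.3% overlap an antisense gene, Gm17638. Reads there are counted for neither gene, so its values rest on the other exon bases. Eif3h, Eif3i and Eif3k departed from a straight line (edgeR adjusted p = 0.0117, 0.0454 and 0.0135) and passed in no contrast, as did none of Eif3e, Eif3m and Eif3j1. Per kb of exon Eif3g (98.7 CPM) and Eif3b (82.5) led, Eif3h stood at 47.6, Eif3c at 40.0, Eif3k at 37.0, Eif3a at 35.2, Eif3l at 34.4, Eif3f at 22.4, Eif3m at 20.1, Eif3i at 15.2, Eif3d at 14.1 and Eif3e at 8.03.

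Of the 5 members named for eIF1 and eIF1A, which hold the scanning ribosome open until it meets a start codon, 1 passed in a contrast. Eif1 had 157 to 207 CPM at 2 months, 209 to 309.9 at 6, 182 to 260.5 at 12, 141 to 229 at 18 and 175 to 216 at 24. The 6-month libraries did not overlap those of 2 months (0.41 ± 0.11 log2, edgeR adjusted p = 0.0209), and 2 of 30 omissions ended the call. Without the female 6-month libraries the difference was 0.24 log2 and did not pass (adjusted p = 0.529). Its paralog Eif1b, at 62.8 CPM per kb against 99.0 for Eif1, was 0.45 log2 higher at 6 months without passing (adjusted p = 0.0677). Eif1ax and Eif1a, which encode eIF1A, stood at 13.6 and 15.4 CPM per kb, and Eif1ad, which encodes a protein with a domain like that of eIF1A, at 27.6. Eif1, Eif1b and Eif1ax departed from a straight line.

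For the rest of eIF4, Eif4g2 encodes a scaffold related to eIF4G that lacks the site for eIF4E. It had 693 to 1223 CPM at 2 months, 514 to 1046 at 6, 515 to 1079 at 12, 849 to 1094 at 18 and 754 to 893 at 24, with no contrast passing. Eif4g3 had 53.9 to 80.5 CPM at 2 months, 52.9 to 72.1 at 6, 59.5 to 69.7 at 12, 75.0 to 106 at 18 and 65.3 to 92.3 at 24. It was the third member higher at 18 months (0.32 ± 0.10 log2, edgeR adjusted p = 0.0298), and 6 of 30 omissions ended that call. Eif4g1 averaged 192 CPM and passed in no contrast. Per kb of exon the scaffolds stood at 85.0 CPM for Eif4g2, 26.2 for Eif4g1 and 6.44 for Eif4g3.

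Eif4e, the cap-binding protein itself, averaged 74.8 CPM and passed in no contrast, with differences from -0.25 to 0.03 log2. Eif4e2, a cap-binding protein that represses translation, had 74.9 to 89.3 CPM at 2 months, 54.9 to 81.0 at 6, 69.6 to 78.6 at 12, 62.2 to 87.3 at 18 and 60.8 to 73.0 at 24. The 24-month libraries lay below all of 2 months (-0.27 ± 0.08 log2, edgeR adjusted p = 0.0420), though 13 of 30 omissions ended the call. Eif4e3 was 0.27 to 0.40 log2 above its 2-month level at each later age without passing. Per kb of exon Eif4e stood at 12.4 CPM, Eif4e3 at 10.8 and Eif4e2 at 9.70.

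Among the proteins that bind eIF4E, Eif4ebp1 averaged 36.0 CPM, Eif4ebp2 19.0 and Eif4enif1, the shuttling protein 4E-T, 67.5. None passed. They stood at 16.4, 3.29 and 10.6 CPM per kb. The ratio of Eif4ebp1 to Eif4e was 0.447 ± 0.0212 (SD, n = 6) at 2 months, 0.588 ± 0.149 at 6, 0.452 ± 0.0493 at 12, 0.467 ± 0.0637 at 18 and 0.468 ± 0.0587 at 24. Eif4ebp2 varied widely between libraries of 1 age, from 4.22 to 28.8 CPM at 18 months. Its 6-month libraries, at 19.0 to 32.7 CPM, lay above the 14.7 to 18.5 CPM of 2 months, but the difference of 0.63 log2 did not pass (edgeR adjusted p = 0.173). Eif4h had 504 to 651 CPM at 2 months, 521 to 665 at 6, 479 to 585 at 12, 439.9 to 566 at 18 and 515 to 633 at 24. Its 18-month call (adjusted p = 0.0346) ended in 8 of 30 omissions. Eif4b, at 13.2 CPM per kb, passed in no contrast.

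Eif5a had 389.9 to 469.5 CPM at 2 months, 373 to 479 at 6, 381 to 511 at 12, 279.9 to 389 at 18 and 346 to 470.1 at 24. At 18 months it was lower in all 6 libraries than in any of 2 months (-0.35 ± 0.09 log2, edgeR adjusted p = 0.00789), a call that held in all 30 omissions. Its paralog Eif5a2 averaged 16.8 CPM with a CV of 43.9%, the widest of the 46, and its slope of 0.66 log2 did not pass (adjusted p = 0.150). The ratio of Eif5a to Eif5a2 was 33.4 ± 9.99 at 2 months, 49.7 ± 25.4 at 6, 26.8 ± 16.4 at 12, 16.7 ± 2.49 at 18 and 22.9 ± 3.80 at 24 (SD, n = 6). The 18-month ratios, 12.6 to 19.6, lay below the 24.3 to 51.6 of 2 months. Eif5, which makes eIF2 hydrolyse its GTP at the start codon, and Eif5b, which joins the subunits, stood at 42.9 and 7.90 CPM per kb and passed in no contrast.

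Differences at 6 and 18 months varied with exon length. At 6 months the 23 members shorter than the median of 4401 exon bases had a median difference of 0.21 log2 and the 23 longer ones -0.04. At 18 months these medians were -0.27 and -0.06. Spearman's rho between exon length and the difference was -0.44 over the 46 members at 6 months and 0.49 at 18 months. Over 16806 genes with a length it was -0.27 and 0.11. These are descriptions across genes of the same libraries, and genes are not replicates. Longer-than-median genes took 52.0 to 56.9% of counts at 2 months, 44.3 to 56.1% at 6 and 55.0 to 61.2% at 18. In the 3 female libraries of 6 months that share was 45.9, 44.3 and 47.7%, below the 51.8, 52.7 and 56.1% of the males. With this share as a covariate, an alternative chosen after the data were seen, 2 of the 5 members called at 6 months still passed, and 9 of the 13 called at 18 months, with 12 members passing there in all. Without the female 6-month libraries Eif4a1 alone passed at 6 months, while the difference of Eif4a2 was 0.35 log2 (edgeR adjusted p = 0.0712). The share's part in the other differences was not tested further.

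**Figure D5:**
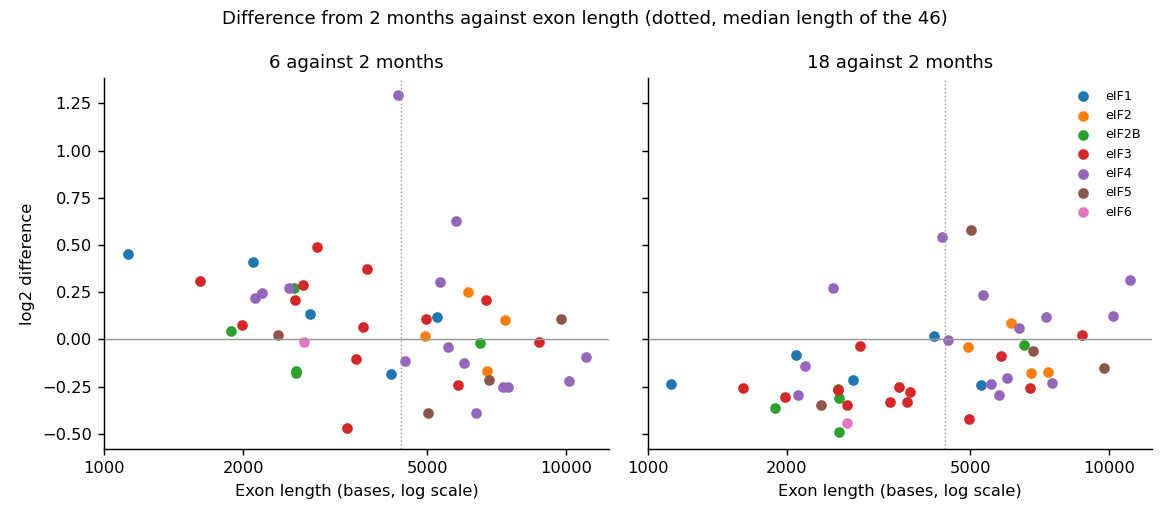
Log2 difference from 2 months of the 46 members against exon length in bases (log scale) at 6 and 18 months, coloured by complex, with the median length dotted. At 6 months the shorter members lie mostly above 0 (median 0.21), at 18 months mostly below (median -0.27), and Eif4a1 stands apart at 6 months.

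No member passed the test between males and females (edgeR, 0 of 46 at adjusted p under 0.05, 2 at an unadjusted p under 0.05, and 0 by DESeq2). Of all genes 0.101% did. Eif4a2 was nearest, 0.16 log2 lower in males (adjusted p = 0.396), followed by Eif4g1, 0.21 log2 higher in males (adjusted p = 0.501). No member and no gene at all passed the interaction of sex with age (0% of 16844), and 0 members passed by DESeq2. At an unadjusted p under 0.05 there were 4 members, Eif3d, Eif3e, Eif3f and Eif6 (adjusted p = 0.876 for each), and 916 of all genes.

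The regulators of initiation were given by lists written with earlier results of these data known. Whether the calls of these lists, and of those in the next paragraph, hold under the alternatives or without single libraries was not tested. On the slope, 1843 of all genes passed in the reported fit. Only 402 did once the share of reads outside genes was added, and none of the 4 falling members was among them. Of the eIF2 kinases and phosphatase regulators 9 of 10 were tested, with 2 higher (22.2%) and 1 lower (11.1%) on the slope, against 5.72% and 5.22% of all genes. Impact, an inhibitor of the kinase Gcn2, rose by 0.51 ± 0.15 log2 over 22 months (edgeR adjusted p = 0.0273), as did Gcn1l1, the activator of that kinase, by 0.52 ± 0.17 (adjusted p = 0.0473). Ppp1ca, a catalytic subunit of the phosphatase that acts on eIF2, fell by 0.40 ± 0.09 (adjusted p = 0.00343). Of the 12 genes of mTORC1 and of the kinases of eIF4 and the 4E-binding proteins, 1 passed on the slope. It was Akt1s1, the inhibitory subunit PRAS40, which fell by 0.42 ± 0.12 log2 (adjusted p = 0.0238). That is 8.33% of the list falling, against 5.22% of all genes. At 18 months 4 of the 12 were higher (33.3%) and 1 was lower (8.33%), against 10.1% and 8.70% of all genes, a contrast that moves with reads outside genes as above.

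Of 21 accessory factors 1 was higher and 1 lower on the slope (4.76% each), against 5.72% and 5.22% of all genes. Paip2b, which holds the poly(A)-binding protein off the message, rose by 0.77 ± 0.20 log2 (edgeR adjusted p = 0.0109). Dohh, an enzyme of hypusine synthesis on eIF5A, fell by 0.41 ± 0.12 (adjusted p = 0.0207), and the other 19 did not pass. Of the 10 elongation and termination genes tested 1 was higher and 1 lower on the slope (10% each, against the same shares of all genes). Gspt2 rose by 1.38 ± 0.31 log2 (adjusted p = 0.00363) from a low level of 3.33 CPM on average, and its paralog Gspt1, the release factor eRF3a, fell by 0.31 ± 0.09 (adjusted p = 0.0277). The list of cytosolic ribosomal proteins was drawn by symbol, so it also takes in genes named as like a ribosomal protein, such as Rpl7l1. Among its 82 genes tested none rose on the slope and 3 fell (3.66%, below the 5.22% of all genes), among them Rpl27 (-0.61 log2) and Rpl7l1 (-0.35). At 6 months 9 of the 82 were higher (11.0%, against 4.07% of all genes) and none lower, with a median difference of 0.49 log2 against 0.06 for the initiation factors and -0.02 for all genes. At 18 months none was higher and 6 were lower (7.32%, against 8.70% of all genes, median -0.18).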

How the data were processed

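RNA was measured in 30 libraries, 3 male and 3 female at each of 5 ages. The deposited tables hold counts of reads per gene, made with STAR 2.5.2b on GRCm38/mm10, per the submitters' processing notes, which also name FastQC 0.11.4, MultiQC and HTSeq. Per the labels' protocols, SMART-Seq v4 was the cDNA kit and Nextera XT the library kit. No source used here names the annotation release. The unstranded counts were used, and reads at several places, outside genes or in more than 1 gene are in no gene's count. Of the gene IDs in the tables, 48435 matched the GENCODE M21 annotation of GRCm38.

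edgeR 4.0.16 (with limma 3.58.1, in R 4.3.3) fitted quasi-likelihood models with TMM factors to the 16844 genes left by filterByExpr on age (minimum count 10, minimum total 15), putting 31951 aside. The slope used age in months and sex, and the 4 contrasts used age as a factor and sex. Departure from a line tested 3 polynomial terms together. Benjamini-Hochberg adjustment ran over all genes, with 0.05 as the threshold. SE is the log2 difference over the root of F. The script was tested on simulated data. Libraries of a group differed by more than counting noise, so none was merged. Since separate mice are not stated, p-values measure only the spread between these samples.

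Alternatives were DESeq2 1.42.0, its size factors, no filter and a stricter one, each sex or age left out, technical covariates and each library left out.

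The members and all lists were chosen with earlier results of these data known. Every member is named. Ranges by age are given for members that pass on the slope or in a contrast, up to 15 by the slope's adjusted p, and for the highest CPM of each complex. Those of Eif4a1 and Eif4a2, and the partial ones of Eif2s2 and Eif4ebp2, were added after their values were seen. Of other lists, at most 4 genes that passed on the slope are named. A further gene of these lists is not reported here.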

Additional observations from a re-analysis of the deposited data

Results flagged for a closer look

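In 8 of the 230 sets of 6 libraries (46 members at 5 ages) 1 library stood apart from the other 5 by Dixon's test at its 95% critical value, where chance flags about 1 set in 20, or 11.5. Eif1a, a source of eIF1A, reached 94.7 CPM in male 18-month replicate 2, where the other 5 had 58.1 to 70.4. Eif1ax reached 69.5 CPM in the same library, against 57.7 to 60.1. Eif1ad had 58.9 CPM in male 2-month replicate 1, against 77.3 to 84.9, and Eif4h 503.6 CPM in that library, against 598.3 to 651.0. Eif1b had 48.6 CPM in male 2-month replicate 3, against 66.1 to 71.3. Eif4a2 reached 139.6 CPM in female 6-month replicate 1, against 116.6 to 123.4, and its 6-month call held without that library. Eif4enif1 had 44.2 CPM in male 12-month replicate 1, against 67.2 to 79.6. Eif4g3 reached 106.5 CPM in female 18-month replicate 3, against 75.0 to 86.8, and its 18-month call ended without that library.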

How the results depend on the processing

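Eif4a1 at 6 and 24 months kept its calls under every alternative run, the counts for sex and for sex by age were 0 throughout, and the other counts moved with at least 1 setting. On the slope, 4 members fell in the reported fit. The count was 1 with no filter, 0 with reads outside genes as a covariate, 0 in males alone, 2 in females alone, and 2, 2, 1 and 8 without the libraries of 6, 12, 18 and 24 months, of which 1, 2, 1 and 4 were among the reported 4. Without those of 2 months it was 3, with none of the 4. It was 3 without the female 6-month libraries and 3 with the share of counts in longer genes, each with 1 of the 4, and 6 by DESeq2 with all 4. The number rising was 0, and 1 without those of 2 months (Eif4g1), of 6 months (Eif4a1) and of 12 months (Eif5a2). Over all genes the slope called 1843 in the reported fit, rising and falling together. That number was 2244 with no filter, 402 with reads outside genes, 193 in males alone and 623 in females alone. Without the 2-month libraries it was 940, and without the 6-month ones 2029. At 6 months the 5 member calls became 3 with no filter, 8 with reads outside genes, 1 without the female 6-month libraries, 2 with the share of counts in longer genes and 8 by DESeq2. At 12 months the 1 call became 0 with no filter and 2 with reads outside genes. At 18 months the 13 became 8 with no filter, 0 with reads outside genes and 20 without the female 6-month libraries. At 24 months the 3 became 1 with no filter and 5 with the share in longer genes. Departure from a line, 13 members, became 8 with no filter, 2 with reads outside genes, 4 without the female 6-month libraries, 2 with the share in longer genes and 20 by DESeq2. With reads outside genes, Eif3d (0.0578 log2), Eif3g (0.0536), Eif5a (0.0001) and Eif6 (0.04) turned sign at 18 months with none passing.

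Leaving out 1 library gave 1 to 6 falling members, 2 to 10 at 6 months, 0 to 1 at 12, 7 to 18 at 18, 1 to 3 at 24 and 6 to 20 for departure from a line. Rising members, sex and sex by age stayed at 0. The cause of these moves was not tested. Over all genes DESeq2 called 51 for sex against 17, and with no filter 7 passed for sex by age against 0. No paired analysis was possible because the labels give no replicate numbers.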
